A study of Mus musculus with 21 samples.

Results

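RNA from mouse aortic valves was compared between stenotic valves of Notch1 heterozygotes and healthy valves of wild-type mice, across all genes. The members are 7 of the 21 libraries of the series, taken by their titles: 4 labelled WT, healthy and treated with control solvent, and 3 labelled N1het, stenotic and treated with control solvent. Both groups were Terc-/- mice of generation 2, so the controls also lacked the RNA template of telomerase. The WT mice had the genotype N1+/+ and the stenotic mice N1+/-. Injections were given into the peritoneum every day for 4 weeks, beginning at 4 weeks of age. The comparison therefore joins a genotype and a disease state, and the effect of the Notch1 allele cannot be told apart from that of the narrowing of the valve. In the label field for the agent, the 3 stenotic libraries carry XCT790, an inverse agonist of the nuclear receptor ERRα, where their titles and descriptions give control solvent. For these 3 libraries solvent and XCT790 cannot be told apart from the labels, and the grouping below rests on the titles. Whether libraries of a group stem from different animals is not stated, so a p reflects only how far samples of a group differ. In the main fit this spread was pooled over all groups of the 21 libraries. Libraries outside the comparison therefore also set each p and SE.

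The leaflets of the aortic valve consist of interstitial cells in a layered matrix of collagen, proteoglycan and elastic fibres, covered by endothelium. NOTCH1 is a cell surface receptor whose inner part, once cut free by ligand, enters the nucleus and switches genes on. Loss of 1 copy of its gene is a known cause of calcified aortic valves in people. In heterozygous mice, shortened telomeres are known to promote the disease. Calcified valves are known to hold macrophages, lipid and bone-type matrix beside activated interstitial cells.

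Markers of valve tissue were present in every library of both groups. The fibroblast marker Dcn, a small collagen-binding proteoglycan, lay between 2580 and 4700 FPKM, a unit that divides the fragments of a gene by its length and the library's total, and the endothelial adhesion gene Pecam1 between 91.5 and 302 FPKM. Libraries held 8.42 to 21.5 M reads in WT and 8.86 to 15.1 M in N1het stenosis. WT 1 belongs to a set of 6 libraries of the series with over 17 M reads, which holds no N1het stenosis library. Markers of heart muscle cells were high in WT 4 and N1het stenosis 2, with a mean log2(FPKM + 1) of 5.6 and 6.74, beside 0.88 to 2.95 in the other 5 libraries. Reads of mitochondrially encoded genes made up 0.517%, 2.38%, 5.64% and 8.4% of WT 1 to 4 and 1.48%, 6.17% and 4.39% of N1het stenosis 1 to 3.

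Notch1 was listed at 46.5, 33.6, 26.6 and 28.7 FPKM in WT 1 to 4 and at 27.0, 26.7 and 20.9 FPKM in N1het stenosis 1 to 3. The groups overlapped, and the log2 difference of stenosis from WT was -0.41 ± 0.29 (SE, n = 3 and 4; limma adjusted p = 0.668). Reads over the gene can include those of a mutant allele, so these levels do not test the genotype. Terc is not listed in the table and was not analysed here. Esrra, the gene of the receptor that XCT790 acts on, was low in both groups, at 1.83, 2.33, 3.46 and 2.0 FPKM in WT and 1.79, 1.73 and 0.836 FPKM in stenosis. The 3 stenotic values lay just under the WT values, with a log2 difference of -0.47 ± 0.39 (limma adjusted p = 0.715).

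Stenotic valves had more transcript of 4 genes and less of 1. Of 14966 genes tested with limma, 5 had an adjusted p under 0.05, which is 0.0334%. Those that rose were Lyz1 and Nceh1, a lysozyme and the hydrolase that frees cholesterol from its esters in macrophages, Nppb, the precursor of the natriuretic peptide BNP, and BC067068, whose Ensembl identifier now carries the symbol Mettl25. The gene that fell was Coch, which encodes the secreted matrix protein cochlin. An unadjusted p under 0.05 was reached by 1563 genes (10.4%), of which 950 (6.35% of all tested) were higher in stenosis and 613 (4.1%) lower. The median log2 difference over all tested genes was 0.06, and 54.4% of them lay above 0.

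Lyz1 was listed at 3.93, 1.69, 0.526 and 15.5 FPKM in WT 1 to 4 and at 124, 111 and 152 FPKM in N1het stenosis 1 to 3. The lowest stenotic library stood 7.14 times above WT 4, the highest WT library. On the log2(FPKM + 1) scale the difference was 4.91 ± 0.79 (limma adjusted p = 0.0362). Lyz2, the lysozyme of macrophages and neutrophils, lies beside Lyz1 in the genome and was far more abundant, at 563, 893, 642 and 629 FPKM in WT and 3120, 2030 and 3420 FPKM in stenosis. Its groups did not overlap either, and the log2 difference was 2.05 ± 0.48, which missed the threshold (limma adjusted p = 0.175). The transcripts of the pair are 92.0% identical, and 16.1% of all 50-base windows of Lyz1 occur unchanged in Lyz2. The labels do not record how reads that match both genes were counted, and a part of the Lyz1 reads could come from Lyz2. The level of Lyz1 was 0.697%, 0.19%, 0.0819% and 2.47% of that of Lyz2 in WT 1 to 4 and 3.97%, 5.46% and 4.46% in N1het stenosis 1 to 3, so this share was not constant and was higher in each stenotic library.

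The promoters of these genes are shown because the 2 lysozymes and Nceh1 were high in the same 3 libraries. Each window holds 250 bases before and 50 bases after the start site, from RefSeq on GRCm38.p6, in the direction of the gene. Capitals mark ACTTCC, the reverse complement of GGAAGT, a core bound by ETS factors such as PU.1 of macrophages, and, in Nppb, AGATAA, a core bound by GATA factors. Both motifs were chosen after the windows had been read, and both strands were searched. The windows lie at chr10:117292819-117293118 on the minus strand for Lyz1, chr10:117282223-117282522 on the minus strand for Lyz2, chr3:27182754-27183053 on the plus strand for Nceh1 and chr4:147985650-147985949 on the plus strand for Nppb.
Lyz1: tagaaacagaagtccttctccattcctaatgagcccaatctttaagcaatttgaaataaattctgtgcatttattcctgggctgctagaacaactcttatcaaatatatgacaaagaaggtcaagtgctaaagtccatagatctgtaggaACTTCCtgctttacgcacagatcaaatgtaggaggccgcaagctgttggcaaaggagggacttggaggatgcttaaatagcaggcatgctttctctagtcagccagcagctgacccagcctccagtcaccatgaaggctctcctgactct
Lyz2: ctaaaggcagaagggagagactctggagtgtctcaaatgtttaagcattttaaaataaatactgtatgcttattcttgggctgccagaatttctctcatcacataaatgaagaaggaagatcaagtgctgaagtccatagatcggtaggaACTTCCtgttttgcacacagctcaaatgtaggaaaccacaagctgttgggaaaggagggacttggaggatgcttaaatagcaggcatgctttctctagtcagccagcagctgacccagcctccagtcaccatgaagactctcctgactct
Nceh1: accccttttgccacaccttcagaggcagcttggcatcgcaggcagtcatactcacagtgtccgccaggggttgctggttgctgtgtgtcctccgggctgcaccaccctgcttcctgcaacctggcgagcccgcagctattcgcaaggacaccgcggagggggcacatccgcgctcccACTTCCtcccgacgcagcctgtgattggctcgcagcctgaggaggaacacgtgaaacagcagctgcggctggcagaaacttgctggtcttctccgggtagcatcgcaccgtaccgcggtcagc
Nppb: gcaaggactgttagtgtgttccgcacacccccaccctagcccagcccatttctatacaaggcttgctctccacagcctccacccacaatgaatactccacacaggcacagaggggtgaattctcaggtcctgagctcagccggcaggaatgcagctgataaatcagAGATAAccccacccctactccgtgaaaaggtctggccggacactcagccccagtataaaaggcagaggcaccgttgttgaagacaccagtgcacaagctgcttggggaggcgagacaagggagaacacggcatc
GGAAGT begins at -100 from the start site in both lysozyme windows and at -73 in Nceh1, and AGATAA begins at -84 in Nppb. Of 32851 mouse promoter windows of this length, 23.8% hold GGAAGT and 11.2% hold AGATAA, so neither match is unusual. The 2 lysozyme windows are identical at 82.5% of aligned bases, and at 95.8% over their last 120 bases. The windows of Coch and Mettl25 hold neither run of letters.

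In each of the 4 WT libraries Nppb was listed at 0, whereas it stood at 11.2, 38.7 and 30.5 FPKM in N1het stenosis 1 to 3. The fitted log2 difference of 4.63 ± 0.79 (limma adjusted p = 0.0362) depends on the constant added to the FPKM, because the WT group stands at 0. BNP is known from stretched heart muscle. The mean log2(FPKM + 1) of cardiomyocyte markers was 0.88, 6.74 and 2.95 in N1het stenosis 1 to 3 and 1.64, 0.96, 2.83 and 5.6 in WT 1 to 4. With this level as a covariate the difference of Nppb was 4.62 ± 0.81 (limma adjusted p = 0.0526), and without the libraries rich in heart muscle it was 4.29 ± 0.81 (adjusted p = 0.243). Nppa, the atrial peptide gene, had another pattern. It stood at 169 FPKM in WT 4 and 81.0 in N1het stenosis 2, the 2 libraries rich in heart muscle, and at 0.837 or less in the other 5. Nppc, the peptide made by endothelium, varied within both groups, from 0 to 88.4 FPKM in WT and 0.106 to 30 in stenosis. The receptor gene Npr1 was at 41.9, 20.5, 18.0 and 17.4 FPKM in WT and 20.2, 9.8 and 7.54 FPKM in stenosis, a log2 difference of -0.93 ± 0.40 (limma adjusted p = 0.419) with groups that overlap. Npr2, the receptor of the Nppc product, had a log2 difference of -0.81 ± 0.39 (adjusted p = 0.481). Of the 11 tested members of the natriuretic peptide list, Nppb was the one that changed by the adjusted test, and the median of the list was -0.09.

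Nceh1 stood at 4.45, 2.56, 3.62 and 1.58 FPKM in WT and 13.8, 15.4 and 19.8 FPKM in stenosis. The lowest stenotic library stood 3.11 times above the highest WT library, and the log2 difference was 2.14 ± 0.37 (limma adjusted p = 0.0362). BC067068 rose from 1.17, 0.792, 0.605 and 1.36 FPKM to 8.66, 13.1 and 9.0 FPKM, again without overlap, by 2.50 ± 0.45 on the log2 scale (adjusted p = 0.0419). Coch fell from 25.3, 52.0, 22.5 and 39.0 FPKM in WT to 9.7, 1.98 and 0.807 FPKM in stenosis. The lowest WT library stood 2.32 times above the highest stenotic library, and the log2 difference was -3.13 ± 0.54 (adjusted p = 0.0362). In the libraries outside the comparison, Coch averaged 65.8 FPKM in N1het healthy valves and was listed at 29.2, 26.3 and 9.99 FPKM in N1het stenosis XCT790. Nceh1 and BC067068 averaged 7.44 and 4.41 FPKM in N1het healthy valves, between the WT and the stenotic levels, and Nppb 0.579 FPKM.

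**Figure D1:**
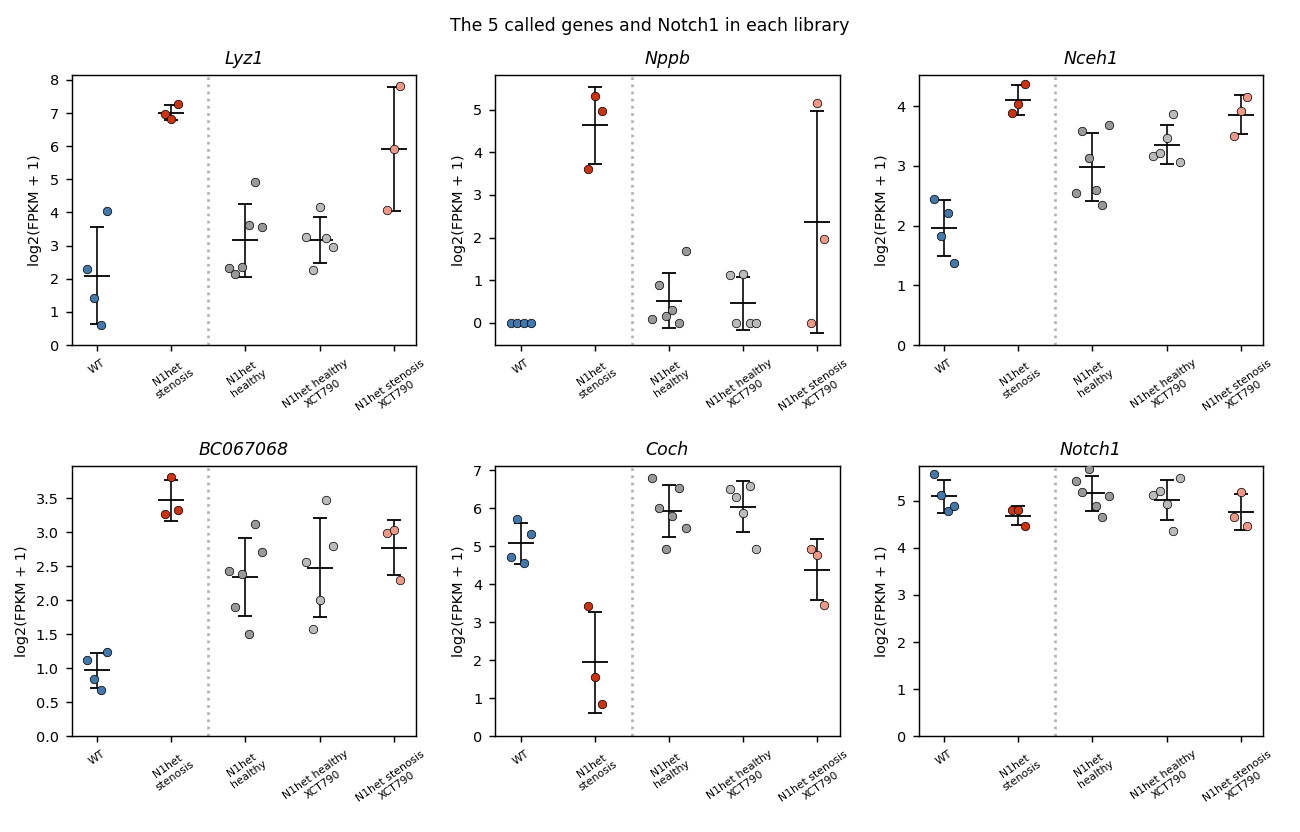
Level of the 5 called genes and of Notch1 in each of 21 libraries, as log2(FPKM + 1) on the vertical axis, by group; horizontal bars are group means and whiskers 1 SD. The 3 N1het stenosis libraries sit above all 4 WT libraries for Lyz1, Nppb, Nceh1 and BC067068 and under them for Coch, while the 2 groups overlap for Notch1.

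The calls depended on which libraries entered. Fitted to the 7 compared libraries alone, limma called 0 genes (1166 at an unadjusted p under 0.05), and it called 0 without WT 1, without WT 3, without N1het stenosis 2 and without N1het stenosis 3. With the 6 libraries that the agent field labels XCT790 and the titles stenotic pooled, 13 genes passed, among them Lyz1, Nceh1 and BC067068 but not Nppb or Coch.

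Next in order of p came genes that missed the threshold. Tmem97, a sterol-regulated protein of the endoplasmic reticulum, was at 0.473, 0, 0.814 and 0 FPKM in WT and 5.92, 4.92 and 41.1 in stenosis, a log2 difference of 3.23 ± 0.60 (limma adjusted p = 0.0507). Grk5, a kinase that desensitizes G protein-coupled receptors, was at 11.2, 20.9, 14.5 and 9.48 FPKM in WT and 32.7, 39.3 and 49.5 in stenosis (log2 difference 1.5 ± 0.29, adjusted p = 0.0586). Rhod, a small GTPase of endosomes, had 0.61 to 3.63 FPKM in WT and 12.4 to 29.4 in stenosis (adjusted p = 0.0933). In each of these 3 genes the groups did not overlap, a pattern found in 8.61% of all tested genes, with higher stenotic values in 5.05% and lower ones in 3.55%. The 3 genes were picked by a small p from the same values, so the lack of overlap adds no support. Edn1, which encodes the vasoconstrictor endothelin-1, was listed at 1.26, 0.793, 2.78 and 1.83 FPKM in WT and at 18.2, 16.9 and 25.3 FPKM in stenosis (log2 difference 3.02 ± 0.65, adjusted p = 0.144). Selplg, the leukocyte ligand of P-selectin, ran from 1.92 to 12.6 FPKM in WT and from 27.6 to 67.6 in stenosis (adjusted p = 0.133). With BC067068 set aside, because its symbol is a clone name, Expi and Dgcr6 completed the 10 genes with the smallest p in this direction, Expi with 0 FPKM in every WT library and 3.69, 6.29 and 7.4 in stenosis. Outside the comparison, N1het healthy valves averaged 4.43 FPKM of Tmem97, 12.4 of Rhod and 3.66 of Dgcr6, beside WT means of 0.322, 2.56 and 0.721. Tmem97 ran from 1.01 to 6.47 FPKM there, a range that holds N1het stenosis 1 and 2. Grk5, Edn1, Selplg and Expi averaged 21.6, 3.38, 6.22 and 0.209 FPKM in N1het healthy valves.

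Among genes with lower values, Abcc9 came next after Coch. It encodes the regulatory subunit of an ATP-sensitive potassium channel of vascular mural cells, and was at 77.6, 72.9, 58.2 and 35.5 FPKM in WT and 22.8, 20.3 and 14.4 in stenosis (log2 difference -1.59 ± 0.30, limma adjusted p = 0.0586). The splicing regulator Rbm10 was at 19.1, 15.1, 9.98 and 23.8 FPKM in WT and 4.82, 4.18 and 2.65 in stenosis (-1.84 ± 0.36, adjusted p = 0.0586). Peg3, an imprinted zinc finger gene, had 12.7 to 15.6 FPKM in WT and 2.94 to 4.63 in stenosis (-1.64 ± 0.32, adjusted p = 0.0709). Scaled by median of ratios, Abcc9, Rbm10, Peg3 and Tmem97 passed the threshold, and 9 genes were called in place of 5. Rara, which encodes a retinoic acid receptor, was tight in both groups, at 21.7, 21.1, 18.1 and 19.8 FPKM against 7.84, 8.79 and 7.98 (log2 difference -1.20 ± 0.26, adjusted p = 0.144). In the N1het stenosis XCT790 libraries Rara was listed at 25.9, 20.1 and 20.8 FPKM and Peg3 at 17.4, 12.6 and 6.87, so those stenotic libraries did not show the low values of the 3 compared here. Rgs5, a pericyte regulator of G proteins, was at 136 to 225 FPKM in WT and 59.7 to 95.8 in stenosis (-1.12 ± 0.26, adjusted p = 0.168). The microfibril protein gene Mfap4 stood at 730, 604, 615 and 495 FPKM in WT and 168, 277 and 120 in stenosis (-1.77 ± 0.42, adjusted p = 0.175). Ppp1r10, a nuclear anchor of protein phosphatase 1, Odz3, a teneurin, and Rpusd2 also lay lower without overlap, at log2 differences of -1.52, -1.60 and -2.34 (adjusted p = 0.155, 0.156 and 0.175).

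**Figure D2:**
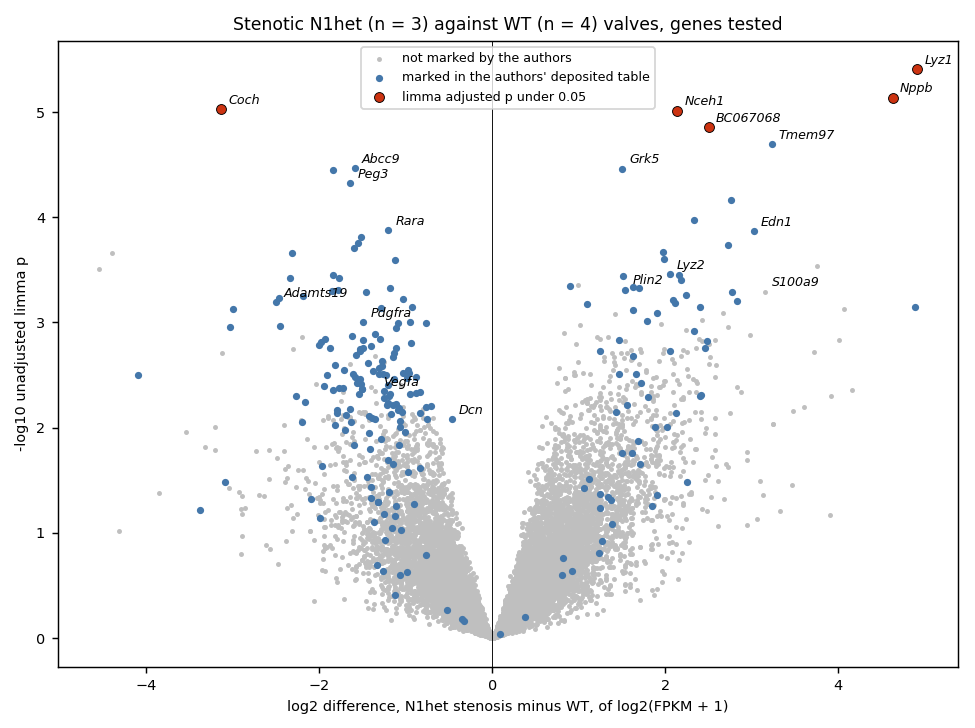
Log2 difference of N1het stenosis (n = 3) from WT (n = 4) on the horizontal axis against -log10 of the unadjusted limma p for the 14966 tested genes, with the 5 called genes in red and genes marked in the authors' deposited table in blue. Of the called genes Lyz1 and Nppb lie farthest to the right at 4.91 and 4.63, and Coch is the called gene on the left at -3.13.

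Macrophage and monocyte markers were higher in stenosis as a group. All 31 tested of 32 had a positive log2 difference, with a median of 1.34 beside 0.06 over all genes, and 21 reached an unadjusted limma p under 0.05. Lyz1 alone passed the adjusted threshold. Values were higher without overlap for 20 of the 31, beside 5.05% of all genes tested. The summed level of the 32 markers was 1780 to 3290 FPKM in WT and 5320, 7740 and 9850 FPKM in N1het stenosis 2, 1 and 3, again without overlap. In a whole valve, more cells of a type and more RNA per cell cannot be told apart. Ms4a7, a macrophage membrane gene, was at 52.6, 92.7, 53.5 and 18.3 FPKM in WT and 240, 173 and 335 in stenosis (log2 difference 2.33 ± 0.62, adjusted p = 0.233). C1qb, a subunit of the first complement component, was at 156 to 448 FPKM in WT and 488 to 977 in stenosis (1.42 ± 0.41, adjusted p = 0.253). The leukocyte integrin genes had lower levels: Itgam, the α chain, ran from 5.46 to 22.6 FPKM in WT and 27.5 to 41.1 in stenosis, and Itgb2, the β chain, from 6.94 to 19.4 and 16.4 to 45.5, which overlap. The median was 1.25 without the libraries rich in heart muscle and 1.40 without the 6 deepest libraries. The count at an unadjusted p under 0.05 fell to 12 without WT 4 and to 11 without N1het stenosis 3, with all 31 differences still positive. The background for this list and those that follow is the same: of all genes tested, 54.4% lay above 0 around a median of 0.06, and 6.35% were higher and 4.1% lower at an unadjusted p under 0.05.

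Neutrophil genes were uneven among the stenotic libraries. The summed markers ran from 0.835 to 31.6 FPKM in WT and stood at 6.35, 73.3 and 61.8 FPKM in N1het stenosis 1 to 3, which overlap. S100a9 and S100a8, the subunits of the alarmin calprotectin, were listed at 0 in all WT libraries and in N1het stenosis 1. In N1het stenosis 2 and 3 S100a9 stood at 20.3 and 31.9 FPKM and S100a8 at 16.6 and 1.71 FPKM. Csf3r, the receptor of the neutrophil growth factor G-CSF, was at 0.559 to 4.28 FPKM in WT and 4.97, 13.5 and 13.8 in stenosis (log2 difference 1.98 ± 0.61, limma adjusted p = 0.274). Only 4 of 14 neutrophil markers reached the level needed for the test, and Ly6g, Camp and Mmp8 were among those that did not. The log2 differences of the 4 ran from 0.12 to 3.15, and 3 reached an unadjusted limma p under 0.05.

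Cytokines and chemokines differed in both directions, with more members higher than lower. Of 26 tested 21 lay above 0, with a median of 0.63 beside 0.06 over all genes. At an unadjusted limma p under 0.05, 6 were higher and 3 lower, beside 6.35% and 4.1% of all genes. These counts rested on single libraries: 2 were higher without N1het stenosis 1 or N1het stenosis 3, 10 were higher and 0 lower without WT 3, and the median was 1.13 without N1het stenosis 2. Ccl6 was at 5.88, 14.8, 9.8 and 8.4 FPKM in WT and 46.8, 30 and 61.5 in stenosis (2.14 ± 0.65, adjusted p = 0.274), and Ccl9 at 6.47 to 27.8 and 45.2 to 67.0. Neither overlapped between the groups. Ccl2, the main attractant of monocytes, overlapped: WT 3 stood at 94.9 FPKM and the other WT libraries at 26.0 to 27.2, beside 196, 60.4 and 86.0 in stenosis. Cxcl9, an interferon-induced attractant of T cells, was listed at 0 in 3 of 4 WT libraries and at 27.6, 0.453 and 24.4 FPKM in stenosis. The chemokines named above are all among the 6 higher members, and the 3 lower ones are not reported here.

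Lysosome and lipid handling genes were also higher in part. Of 27 tested lysosome genes 23 were above 0, with a median log2 difference of 0.47 (all genes 0.06), and 9 were higher and 0 lower at an unadjusted limma p under 0.05. Ctsd, a lysosomal protease, stood at 142 to 180 FPKM in WT and 389, 210 and 426 in stenosis (1.05 ± 0.31, adjusted p = 0.267). Atp6v0d2, a proton pump subunit of macrophages and osteoclasts, was at 0, 2.64, 1.03 and 0 FPKM in WT and 9.89, 5.23 and 11 in stenosis. Grn, the gene of progranulin, and Psap, that of the saposins, had differences of 0.84 ± 0.26 and 0.72 ± 0.26, with adjusted p of 0.288 and 0.34. In all 4 genes the groups did not overlap. Without N1het stenosis 3 the 9 became 3, and the median 0.32. Without WT 4 they became 5.

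Of 21 tested genes of cholesterol ester, efflux and foam cells, 14 lay above 0 (median 0.36, beside 0.06 over all genes) and 4 were higher at an unadjusted limma p under 0.05, Nceh1 among them. Plin2, which coats lipid droplets, was at 23.9, 11.6, 14.4 and 13.8 FPKM in WT and 41.8, 34.1 and 69.9 in stenosis (1.54 ± 0.37, adjusted p = 0.175). Abca1, the exporter of cholesterol, had 5.01 to 10.5 FPKM in WT and 10.6 to 22.9 in stenosis, and Npc2, which carries cholesterol out of lysosomes, 111 to 213 and 207 to 312. Apoe was among the most abundant transcripts of both groups, at 1610 to 2710 and 2070 to 3280 FPKM, and overlapped. Of 25 tested genes of cholesterol synthesis 18 were above 0 (median 0.43) and 5 were higher, 0 lower, at an unadjusted p under 0.05. Their median was 0.24 without N1het stenosis 1 and 0.75 without the libraries rich in heart muscle. The enzymes Fdps and Fdft1 had log2 differences of 1.97 ± 0.56 and 1.56 ± 0.54 (adjusted p = 0.236 and 0.322). Sc5d, a late enzyme of the pathway, was at 11 to 21.3 FPKM in WT and 7.33 to 21.2 in stenosis, with -0.07 ± 0.43.

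Interferon-stimulated genes had a median log2 difference of 0.66 (all genes 0.06), with 26 of 30 above 0 and 5 higher, 0 lower, at an unadjusted limma p under 0.05. The 5 became 3 without N1het stenosis 3 and 8 without N1het stenosis 1. Ifi27l2a was at 154, 175, 154 and 292 FPKM in WT and 612, 669 and 664 in stenosis (1.79 ± 0.47, adjusted p = 0.22), so the stenotic libraries lay close together and over WT 4, the highest WT library. Bst2, which tethers virus particles to the cell, was at 20.6 to 45.0 and 59.2 to 132 FPKM. Irf9, a subunit of the interferon response factor, was at 1.73 to 8.14 FPKM in WT and 40.7, 6.75 and 14.8 in stenosis, where N1het stenosis 2 overlapped the WT range. Of 16 tested genes of antigen presentation 12 lay above 0 (median 0.43), and 3 were higher, 0 lower, at an unadjusted limma p under 0.05. Without N1het stenosis 3, 8 lay above 0 and 8 below, with 1 higher and 1 lower at that p. Without WT 4 the median was 0.13. The class I chain gene H2-K1 ran from 151 to 171 FPKM in WT and from 241 to 396 in stenosis (0.94 ± 0.28, adjusted p = 0.267), and its partner B2m from 1660 to 2430 and 2740 to 3620. Class I genes share much of their sequence, so reads could be split between them. Cd74, the chaperone of class II, was at 524 to 1520 and 697 to 1940 FPKM with a log2 difference of -0.04 ± 0.48. Complement genes were mixed, with 5 of 16 higher and 1 lower at an unadjusted p under 0.05. The 5 became 2 without WT 4, N1het stenosis 1 or N1het stenosis 3, and 3 without WT 3. The C1q chains among the higher ones also belong to the macrophage markers. C2, a protease of the pathway, was at 0.0308 to 2.27 FPKM in WT and 3.17 to 12.6 in stenosis.

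Most fibroblast markers lay below 0. Of 24 tested markers of valve interstitial cells and fibroblasts 21 had a negative log2 difference, with a median of -0.40 beside 0.06 over all genes, and 4 were lower and 0 higher at an unadjusted limma p under 0.05. None passed the adjusted test. Their summed level was 11400 to 13500 FPKM in WT and 9030 to 9750 in stenosis. Because FPKM are shares of a library, a larger share of one group of transcripts lowers that of others, and the part of this in the lower values was not tested. Pdgfra, the growth factor receptor that marks fibroblasts, was at 92.4, 36.9, 42.6 and 49.1 FPKM in WT and 22.9, 17.2 and 14.2 in stenosis (-1.49 ± 0.39, adjusted p = 0.22). Dcn, the most abundant of these, was at 3950, 4700, 4410 and 3370 FPKM in WT and 3120, 2580 and 3140 in stenosis, a small difference of -0.47 ± 0.16 without overlap (adjusted p = 0.322). Fbln1, a glycoprotein of elastic fibres, ran from 120 to 256 FPKM in WT and 72.3 to 106 in stenosis. Vim, the intermediate filament gene of mesenchymal cells, did not separate, at 1850 to 2080 and 1540 to 2080 FPKM.

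Proteoglycan and elastic fibre genes had a median of -0.35 (all genes 0.06), with 17 of 25 below 0 and 3 lower, 0 higher, at an unadjusted limma p under 0.05. Vcan, the large proteoglycan of the spongy valve layer, was at 224, 202, 190 and 98.3 FPKM in WT and 89.9, 73.7 and 90.2 in stenosis (-1.01 ± 0.37, adjusted p = 0.365). Ltbp4, which holds latent TGF-beta in elastic fibres, ran from 154 to 307 and 104 to 121 FPKM. Of 19 tested matrix proteases and inhibitors, 7 lay above 0 and 12 below (median -0.06), with 1 higher and 2 lower at that p. Adamts19, a protease gene tied to valve development, was at 17.1, 5.25, 10.2 and 1.35 FPKM in WT and 0, 0.242 and 0.779 in stenosis (-2.50 ± 0.63, adjusted p = 0.188). Timp1, an inhibitor of matrix proteases, had a log2 difference of 1.21 ± 0.44 (adjusted p = 0.347) with overlapping groups. The 19 tested collagen genes had 10 values above and 9 below 0 and a median of 0.14. Col8a1 was higher (1.76 ± 0.66, adjusted p = 0.368) and Col12a1 lower (-1.20 ± 0.52, adjusted p = 0.429), both at an unadjusted p under 0.05, and Col1a1, the main fibrillar collagen, did not separate at 154 to 216 and 92.7 to 181 FPKM.

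Osteogenic genes split around 0. Among 19 tested osteogenic and mineralization genes 9 were above 0 and 10 below, with a median of -0.14, and 4 were higher and 1 lower at an unadjusted limma p under 0.05. The 4 became 0 without N1het stenosis 3, 1 without N1het stenosis 2, and 2 without N1het stenosis 1, WT 1 or WT 4. Sp7 and Tnfsf11, the genes of osterix and of the osteoclast factor RANKL, were listed at 0 in all 7 libraries. Spp1, the gene of osteopontin, which macrophages also make, stood at 0, 24.9, 12.8 and 13.8 FPKM in WT and 18.4, 48.7 and 57.8 in stenosis (2.17 ± 0.92, adjusted p = 0.419). Sparc, a collagen-binding protein of bone, was at 580 to 944 FPKM in WT and 1070, 1290 and 1440 in stenosis (0.76 ± 0.31, adjusted p = 0.398). Bmp2, an inducer of bone, was at 4.41 to 14 FPKM in WT and 49.1, 7.62 and 25.7 in stenosis, and overlapped. Of 17 cartilage genes 2 were lower at that p, namely Prg4, the lubricant of joint surfaces, at 228 to 902 and 174 to 374 FPKM, and Sox6, at 5.94 to 15.6 and 2.49 to 6.6.

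Receptors and ligands of the Notch pathway split evenly, and most of its target genes lay below 0. The 26 tested receptors, ligands and processing genes split 13 and 13 around 0, with a median of -0.01. Notch2 was at 58.9, 30.6, 24.1 and 30.2 FPKM in WT and 11.8, 16.9 and 20.7 in stenosis (-1.03 ± 0.39, limma adjusted p = 0.368). Lfng, a glycosyltransferase that tunes Notch receptors, was at 0.326, 0, 1.08 and 7.44 FPKM in WT and 12.9, 7.51 and 10.1 in stenosis (2.32 ± 0.70, adjusted p = 0.271). Among 17 Notch target genes the median was -0.64 with 14 below 0, beside 0.06 over all genes, and it stayed between -0.47 and -0.74 when any single library was left out. At an unadjusted p under 0.05, 1 was lower and 1 higher, a share near that of all genes. The higher one was Ccnd1, a cyclin, at 66.3 to 90.7 and 124 to 135 FPKM. Tcf4, a regulator of transcription in endothelial and other cells, was at 52.0 to 75.4 FPKM in WT and 36.3 to 44.5 in stenosis (-0.65 ± 0.26, adjusted p = 0.392).

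Of 31 tested Wnt pathway genes 6 were lower and 0 higher at an unadjusted limma p under 0.05, with a median of -0.20 beside 0.06 over all genes. Without N1het stenosis 3 the median was -0.07 with 3 lower and 1 higher, without N1het stenosis 2 it was -0.12 with 3 lower, and without N1het stenosis 1 it was -0.37. Shisa2, which retains Wnt and fibroblast growth factor receptors inside the cell, was at 7.19, 3.05, 10.8 and 9.07 FPKM in WT and 0.594, 1.19 and 2.51 in stenosis (-1.78 ± 0.43, adjusted p = 0.175). Dkk3, a secreted protein of the Dickkopf family, was at 785, 657, 665 and 510 FPKM in WT and 353, 360 and 380 in stenosis (-0.83 ± 0.30, adjusted p = 0.342). Wnt16, a ligand, ran from 18.1 to 24.7 and 10.3 to 13.4 FPKM. All 3 genes lay lower in stenosis without overlap. In the BMP list the ligand Bmp5 and the receptor Bmpr2 had differences of -1.69 ± 0.63 and -0.57 ± 0.22 (adjusted p = 0.365 and 0.368), and 3 of 18 genes were lower and 1 higher at an unadjusted p under 0.05. Of 20 tested TGF-beta pathway genes, 9 lay above 0 and 11 below, with 2 higher and 2 lower at that p. Tgfb1 was at 30.6 to 49.3 FPKM in WT and 18.5 to 27.4 in stenosis.

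Valve developmental transcription factors had 15 of 20 tested genes below 0 (median -0.42, all genes 0.06), of which 4 were lower and 0 higher at an unadjusted limma p under 0.05. Meis1, a homeobox gene, was at 9.35, 7.8, 7.22 and 5.69 FPKM in WT and 5.36, 0.833 and 0.949 in stenosis (-1.57 ± 0.45, adjusted p = 0.239). Gata6 and Msx1 had differences of -0.88 ± 0.32 and -1.0 ± 0.36 with overlapping groups. Without the 6 deepest libraries, WT 1 among them, the median was -0.20 and 1 gene stayed under that p. Without WT 1 alone the median was -0.20 too, with 2 genes lower.

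**Figure D3:**
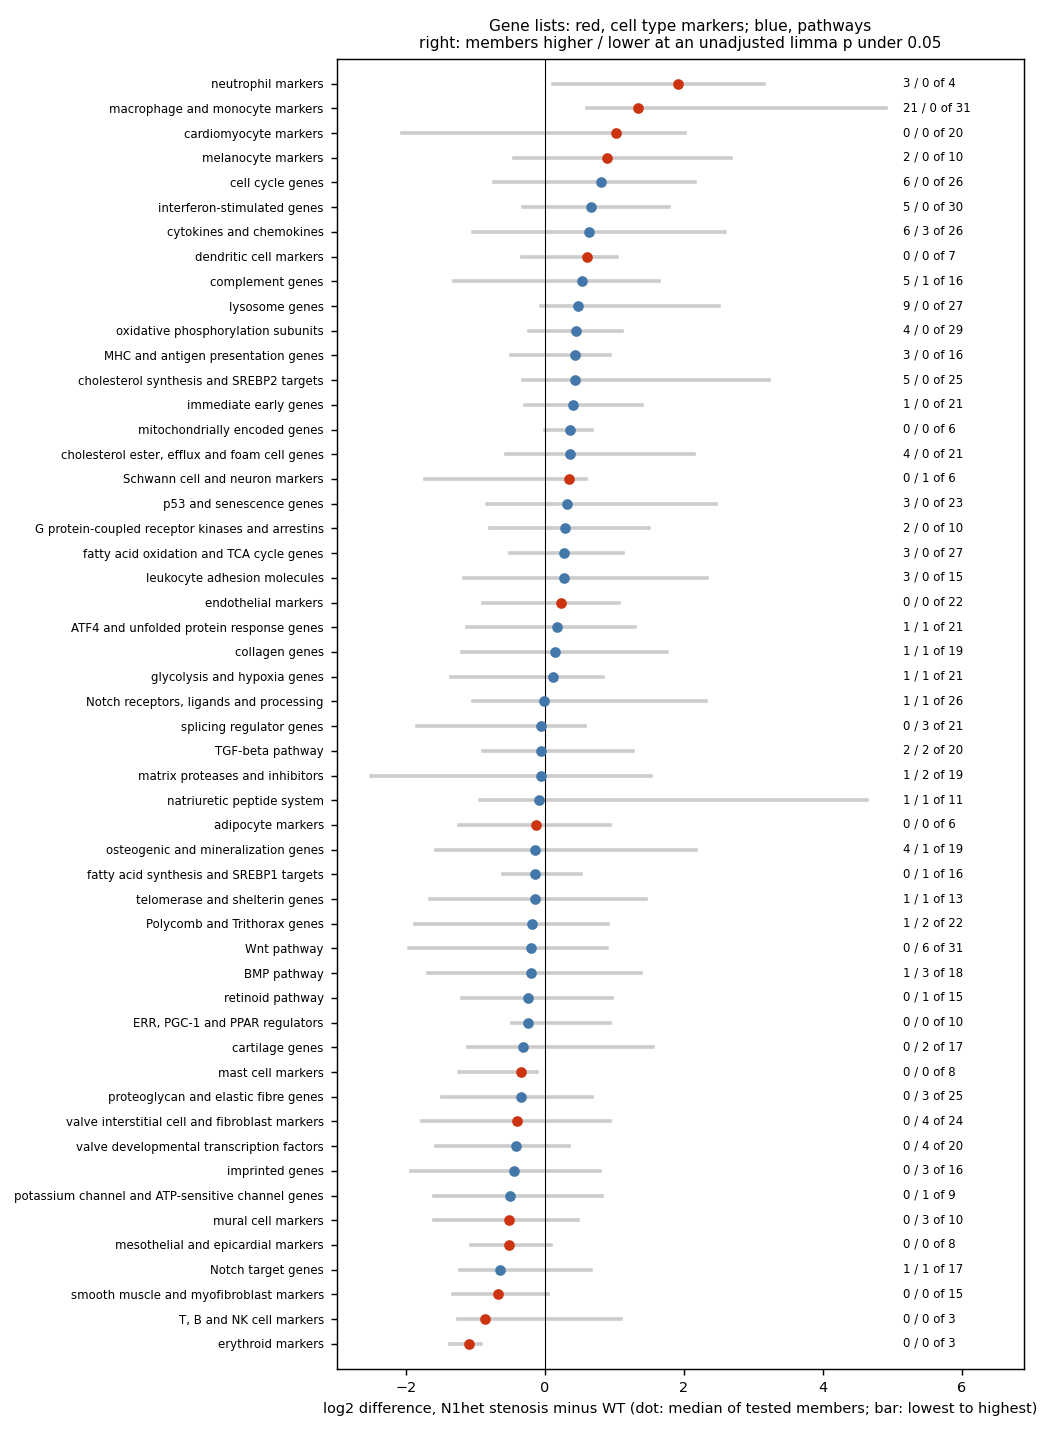
Median log2 difference of N1het stenosis from WT (dot) and the lowest to highest member (bar) for each gene list on the horizontal axis, marker lists in red and pathways in blue, with counts of members at an unadjusted limma p under 0.05 at the right. Macrophage markers lie at 1.34 with every member above 0, while fibroblast and mural markers lie at -0.40 and -0.52.

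Cell cycle genes were low in both groups and higher in stenosis. Of 26 tested 22 were above 0, with a median of 0.80 beside 0.06 over all genes, and 6 were higher and 0 lower at an unadjusted limma p under 0.05. Tpx2, a factor of the mitotic spindle, was at 0.373, 0.78, 0.337 and 1.25 FPKM in WT and 2.74, 10.6 and 8.16 in stenosis (2.16 ± 0.51, adjusted p = 0.175). Aurkb, a mitotic kinase, and Cdc20, an activator of the anaphase complex, were at 1.67 and 0.37 FPKM or less in WT and at 2.72 to 3.84 and 1.88 to 8.86 in stenosis. The mean log2(FPKM + 1) of the list was 1.39 to 1.89 in WT and 2.24 to 2.55 in stenosis, without overlap, and the median stayed between 0.67 and 0.91 when any single library was left out.

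Subunits of oxidative phosphorylation encoded in the nucleus, genes that ERRα drives in many tissues, had 25 of 29 values above 0 and a median of 0.45 (all genes 0.06), with 4 higher and 0 lower at an unadjusted limma p under 0.05. Cox6c, a cytochrome oxidase subunit, was at 23.9 to 43.3 FPKM in WT and 46.2, 57.9 and 58.5 in stenosis (0.76 ± 0.29, adjusted p = 0.368). Without WT 1 the median was 0.33 and 1 gene stayed under that p, whereas 2 did without N1het stenosis 2, 7 without WT 2 and 8 without WT 4. In N1het healthy valves, outside the comparison, the median log2 difference of these 29 genes from WT was 0.36. Between N1het stenosis and N1het healthy valves their median difference was 0.01. The 6 mitochondrially encoded genes had a median of 0.36, which turned to -0.48 without WT 1, the library with the lowest mitochondrial share.

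Among genes of telomerase and the telomere cap, 1 of 13 was higher and 1 lower at an unadjusted limma p under 0.05. Dkc1, a protein of the telomerase particle and of ribosomal RNA modification, was at 23.4, 14.9, 20.2 and 18.7 FPKM in WT and 10.8, 3.99 and 3.43 in stenosis (-1.65 ± 0.48, adjusted p = 0.25). N1het healthy valves were as low, with a mean of 6.01 FPKM beside 6.09 in N1het stenosis. Terf1, which binds telomeric DNA, was at 14.4, 2.25, 10.8 and 3.78 and at 18.2, 13.3 and 27.5 FPKM, and overlapped. Of 23 p53 and senescence genes 3 were higher and 0 lower, and Gdf15, a stress cytokine, ranged from 0 to 15.7 FPKM in WT and from 7.26 to 59.3 in stenosis. Imprinted genes had 15 of 16 values below 0 and a median of -0.45 (all genes 0.06), with 3 lower and 0 higher at an unadjusted p under 0.05. Without N1het stenosis 3 the median was -0.21 with 11 of 16 below 0, and without N1het stenosis 1 the 3 became 5. With no library left out, the 3 were Peg3, Snrpn, a splicing protein gene, at 9.06 to 28.0 and 1.01 to 5.22 FPKM, and Igf2r, the receptor that clears IGF2, at 36.9 to 46.6 and 22.2 to 35.9 FPKM.

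Markers of other cell types were checked in the same way. Mural cell markers summed to 287 to 379 FPKM in WT and 143 to 172 in stenosis, with a median log2 difference of -0.52 and 3 of 10 lower at an unadjusted limma p under 0.05. These were Abcc9, Rgs5 and Pdgfrb, the receptor gene of pericytes at 38.1 to 89.5 and 18.1 to 30.5 FPKM, and they made up most of the sum. The median was -0.27 without N1het stenosis 1, and the mean log2(FPKM + 1) of the list overlapped, with 3.37 in the lowest WT library and 3.38 in N1het stenosis 3. Endothelial markers overlapped, with a median of 0.23 and 0 of 22 under an unadjusted limma p of 0.05. Vegfa, the growth factor of endothelium, which is not one of these markers, was at 26.0 to 52.2 FPKM in WT and 6.97 to 21.5 in stenosis (-1.35 ± 0.43, adjusted p = 0.288). Melanocyte markers, pigment cell genes of the valve, summed to 21.6 to 273 FPKM in WT and 238 to 671 in stenosis. Their gene Mlana was at 0.763 FPKM in WT 4, at 27.2 to 67.0 in the other WT libraries and at 64.1 to 198 in stenosis. Cardiomyocyte markers had a median of 1.02, which was 0.06 without the libraries rich in heart muscle, and Tnnt2, a troponin, ranged from 27.7 to 1670 FPKM in WT and from 87.3 to 1430 in stenosis. Smooth muscle markers went from a median of -0.67 to 0.13 without WT 4. Markers of T, B and NK cells summed to 0.148 to 60.5 FPKM in WT and 7.97 to 30.2 in stenosis, although Cd8a, Cd79a and Pax5 were listed at 0 in all 7 libraries. Fat cell markers summed to 5.36 to 268 and 10.3 to 261 FPKM, with Adipoq, Plin1 and Retn at 0 in all 7. Mast cell markers summed to 18.7 to 121 and 25.2 to 82.3 FPKM, with Ms4a2 at 0 in all 7 and the protease gene Cpa3 at no more than 4.01 FPKM. The groups overlapped in all 3 of these sums. Of these cell type levels, only that of the cardiomyocyte markers was entered in the fit as a covariate, and limma then called 0 genes. The part of the other cell type levels in the differences above was not tested.

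**Figure D4:**
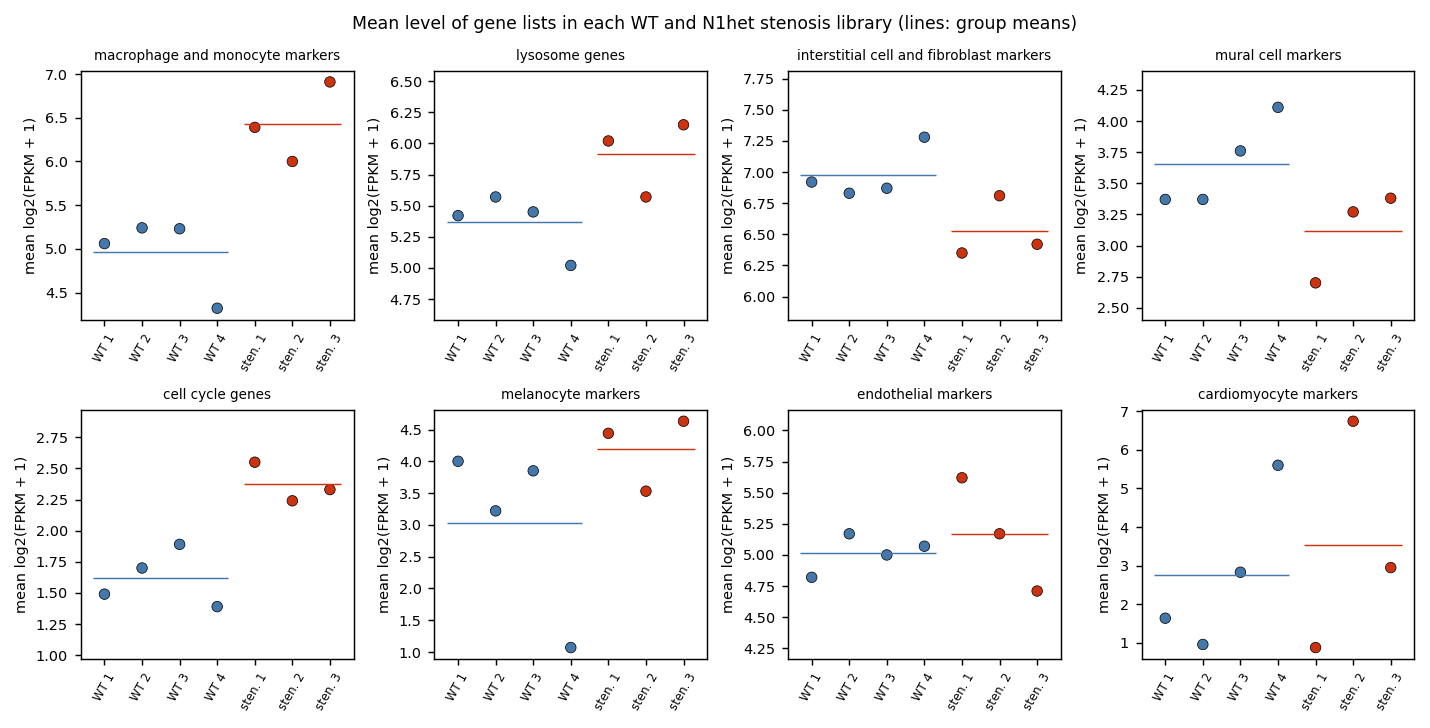
Mean log2(FPKM + 1) of 8 gene lists, vertical axis, in WT 1 to 4 (blue) and N1het stenosis 1 to 3 (red), with lines at the group means. Macrophage and cell cycle lists separate the groups, whereas the cardiomyocyte list is high in WT 4 and N1het stenosis 2.

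The authors' deposited table marks 281 of 20872 genes (1.35%) for this comparison, with a test the labels leave unnamed. Of these 96 (0.46%) had a higher mean in stenosis and 185 (0.886%) a lower one, whereas the genes under an unadjusted limma p of 0.05 were more often higher. The level filter left 223 of the marked genes, 70 above 0 and 153 below, and all 5 genes called here were marked. An unadjusted p under 0.05 was reached by 192 of the 223, and the groups did not overlap in 179. Among the 60 tested genes with the smallest p, the authors' deposited table marks 53. Adamts19, Pdgfra, Meis1, Shisa2, Snrpn, Plin2 and Tpx2 were marked in the authors' deposited table, while S100a9, Dkc1 and Vegfa were not.

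Libraries that the comparison does not use allow the stenotic state to be examined again. N1het stenosis XCT790 (n = 3) was set against N1het healthy XCT790 (n = 5), groups that share no library with the 7 above and have, by their titles, the same genotype and agent. In the agent field 3 of the 5 healthy libraries of this pair carry control solvent, so by that field the pair differs in treatment as well as disease state. limma called 0 genes there, with 760 (5.08%) at an unadjusted p under 0.05. Of the 950 genes that were higher in stenosis against WT at an unadjusted p under 0.05, 699 (73.6%) were higher in this pair too, beside 61.6% of all genes with a positive difference from WT. For the 613 lower genes the count was 443 (72.3%), beside 55.9% of all genes with a negative difference. In the pair Lyz1 had a log2 difference of 2.75 ± 0.76 (SE), Coch -1.66 ± 0.52, Grk5 0.95 ± 0.28, Edn1 1.81 ± 0.62, Abcc9 -1.07 ± 0.29, Mfap4 -1.59 ± 0.40 and Dkk3 -1.16 ± 0.28, each with an adjusted limma p over the threshold (0.468 to 0.872). Nppb was uneven, listed at 0, 34.6 and 2.88 FPKM in the 3 N1het stenosis XCT790 libraries. Rara, Peg3 and Rbm10 lay near 0 in the pair, at 0.03 ± 0.25, -0.20 ± 0.31 and 0.28 ± 0.34, as did BC067068 at 0.29 ± 0.43 and Tmem97 at -0.06 ± 0.57, and Nceh1 was at 0.50 ± 0.36. Macrophage markers had a median of 0.44 with 29 of 31 above 0, and cell cycle genes -0.02 with 12 of 26. Over all genes the median in this pair was 0.04, with 53.4% above 0. The summed macrophage markers were 2720, 7250 and 11600 FPKM in N1het stenosis XCT790 and 1950 to 5810 in N1het healthy XCT790, which overlap.

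**Figure D5:**
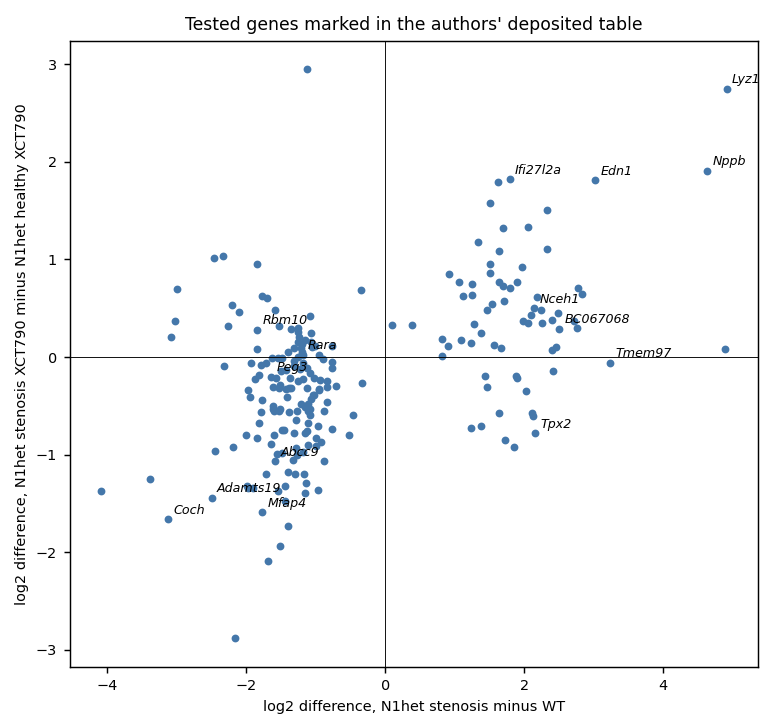
Log2 difference of N1het stenosis from WT (horizontal axis) and of N1het stenosis XCT790 from N1het healthy XCT790 (vertical axis, other libraries) for the 223 tested genes marked in the authors' deposited table. Of 70 genes on the right 55 lie above the horizontal line, and of 153 on the left 115 lie under it.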

How the data were processed

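Valves were lysed directly, RNA was isolated with a Qiagen RNeasy Micro column, and libraries were amplified with NuGEN's Ovation system, per the labels' protocols. FastQC, HISAT2, SAMtools, Picard and mm9 are named in the submitters' processing notes. Tool versions, counting, annotation and strandedness: not given in the sources used here. Whether reads of antisense or overlapping genes were kept apart is therefore not known. What the authors deposited is 1 table of 20872 genes with the FPKM of each library, per the file headers. It also holds the authors' group means, which were not used, and 5 columns of 0 or 1 in which the authors deposited marks of changed genes.

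The unit is FPKM, so no count test was the main result. Whole reads were recovered from the FPKM steps of every gene (within 0.01 reads) and gave the depth of each library, 8.42 to 27.27 M reads. Reads were amplified and carry no molecular identifiers, so they are not independent. limma 3.58.1 (R 4.3.3, statmod 1.5.0) was fitted to log2(FPKM + 1). Tested were 14966 genes whose mean over the 21 libraries reached 1 FPKM, and 5906 were left out. The fit held 5 group means, with a variance trend and robust moderation, and p was adjusted by Benjamini and Hochberg over all tested genes. Differences on this scale understate the change of low genes. Values are log2 differences with their SE. Data were simulated with independent normal noise and 200 changed genes. The test recovered 4.5% of those changed by 1 on the log2 scale and 43.3% of those changed by 2.

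Genes were grouped in 52 lists of 999 symbols, 856 of them tested. The text names Notch1, Terc, Esrra, each called gene, the 10 genes with the smallest p in each direction (clone and model names set aside) and, from each list, up to 4 members with the smallest p and up to 2 of the highest level, as well as defining markers at or near 0. A few genes this rule selects are not reported here. The members and the lists were chosen with earlier results of these data known, so a list's direction is a description. Medians and counts of lists are read against those of all genes. Promoters come from RefSeq (GRCm38.p6). All 6 looked for were found, that of BC067068 through its identifier, and the lysozyme windows and transcripts were aligned with Biopython 1.88. Alternatives changed the pseudocount, filters, scaling, the libraries used, covariates and the model.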

Additional observations from a re-analysis of the deposited data

Results flagged for a closer look

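In WT, the only compared group of 4, 97 named genes and 3 library measures were examined for a value far from the other 3, and 14 stood apart, with a gap to the nearest library, as a share of the range, above Dixon's critical value. Chance alone flags about 1 in 20. WT 1 held the most reads (21.52 M, gap 0.832 of the range). WT 1 was also the highest for Itgb2 (19.4 FPKM, gap 0.87) and the lowest for Npr2 (8.39 FPKM, gap 0.862). WT 2 was the highest for Rgs5 (225 FPKM, gap 0.869) and Npc2 (213 FPKM, gap 0.84), and the lowest for Rhod (0.61 FPKM, gap 0.844) and C2 (0.0308 FPKM, gap 0.9). WT 3 was the highest for Ccl2 (94.9 FPKM, gap 0.964), Cxcl9 (7.19 FPKM against 0, gap 1), Aurkb (1.67 FPKM, gap 0.96), Cdc20 (0.37 FPKM against 0, gap 1) and Cpa3 (4.01 FPKM, gap 0.899). WT 4, rich in heart muscle, was the highest for Nppa (169 FPKM, gap 0.882) and the lowest for Col12a1 (6.96 FPKM, gap 0.834).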

How the results depend on the processing

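Each value was recomputed under up to 24 alternatives. The count of called genes, 5 in the report, stayed within 1.5 times of it with a pseudocount of 0.1 (6), no filter (7), upper-quartile scaling (6) and no trend or robust moderation (4). It was 9 with median-of-ratios scaling, 3 with a mean FPKM of 5 or more, 3 with voom on the recovered reads, 1 with voom and sample weights, 1 with library weights, 0 with the 7 compared libraries alone, 0 with the cardiomyocyte marker level as covariate, 1 (Lyz1) without the libraries rich in heart muscle, 0 with the deep libraries as covariate and 0 without them. Pooling the stenotic libraries by the agent label gave 13, and an adjusted p under 0.1 gave 11. Leaving out 1 library at a time gave 0 to 3: 0 without WT 1, WT 3, N1het stenosis 2 or N1het stenosis 3, 1 without WT 2, 2 without N1het stenosis 1 and 3 without WT 4. The cause was not tested.

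Same-numbered WT and stenotic libraries deviated from their group means with correlations of 0.055, -0.109 and 0. Differently numbered ones ran from -0.119 to 0.154. With groups of 3 and 4, whether the numbers pair samples cannot be told from these values. With the replicate number as a block 3 genes were called, 2 of them Lyz1 and Coch.

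The 5 called genes kept their direction in all 23 refits. Lyz1 stayed called in 11 of these 23, Nceh1 in 7, Coch in 7, BC067068 in 6 and Nppb in 5, and their highest adjusted p were 0.31, 0.365, 0.383, 0.316 and 0.31. The scaling moved the median of all genes from 0.06 to 0.01 (median of ratios), 0.08 (upper quartile) and 0.12 (voom). Of 2309 alternative values of 101 named genes, 30 had the opposite sign, in 5 genes near 0 or with wide errors. Nppa (0.13 in the report) was at -0.60 with the cardiomyocyte covariate, -0.16 without the libraries rich in heart muscle, -0.18 with the deep covariate, -0.26 without deep libraries and -0.28 by the agent label, and at -1.94 to 1.91 without 1 library. Nppc (-0.05) was at 0.02 with a pseudocount of 0.1, 0.20 with library weights, 0.41 with voom and sample weights, 0.27 with the cardiomyocyte covariate, 0.26 with the deep covariate and 0.97 without deep libraries, and at -1.19 to 1.55 without 1 library. Cd74 (-0.04) was at 0.04 with the cardiomyocyte covariate, 0.03 without deep libraries and -0.49 to 0.25 without 1 library. Sc5d (-0.07) was at 0.23 without the libraries rich in heart muscle, 0.10 without deep libraries and -0.34 to 0.37 without 1 library. Pecam1 (0.28) was at -0.13 to 0.72 without 1 library, below 0 only without N1het stenosis 1. Of 31 lists with a median of 0.3 or more in size, 9 changed sign in at least 1 alternative, among them the cardiomyocyte, smooth muscle, mitochondrially encoded and cartilage lists. With 3 stenotic libraries, most changes of 1 on the log2 scale were missed in the simulated data. The simulated noise was independent between libraries and genes, without the heart muscle and depth differences seen here. The detection limit in the real libraries is therefore not known.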

Other observations

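Genes of the circadian clock were looked up after their values had been seen among the genes with low p, so they form no test. Of 18 genes 5 were lower in stenosis without overlap (3.55% of all genes were): Nr1d1, Nr1d2, Hlf, Per2 and Bhlhe41. Nr1d1, a repressor within the clock, was listed at 252, 161, 249 and 163 FPKM in WT and 124, 70.9 and 78.3 in stenosis (log2 difference -1.18 ± 0.29, limma adjusted p = 0.175). Nr1d2, its close relative, was at 24.6 to 45.3 FPKM in WT and 14.8 to 22.3 in stenosis. Hlf, an output factor of the clock, was at 33.2, 16.0, 31.1 and 30.1 FPKM in WT and 9.23, 7.09 and 9.94 in stenosis (-1.51 ± 0.47, adjusted p = 0.285). Per2 ran from 7.62 to 11.1 FPKM in WT and from 1.96 to 6.11 in stenosis. Npas2 and Nfil3, which peak at the opposite time of day in many tissues, had positive differences of 1.49 ± 0.71 and 1.36 ± 0.60 (adjusted p = 0.475 and 0.441) with overlapping groups, and Arntl 0.69 ± 0.66. Nr1d1 overlaps the antisense gene Thra, and the strandedness of the counts is not recorded in the labels, nor is the hour at which valves were collected.

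In N1het stenosis XCT790, Nr1d1 was listed at 118, 112 and 107 FPKM, beside a mean of 224 FPKM in N1het healthy XCT790. The log2 difference of this pair was -0.97 ± 0.27 (limma adjusted p = 0.708). N1het healthy valves, treated with solvent by their titles, had a mean of 213 FPKM.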
